A study of Homo sapiens with 12 samples.

Results

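The chaperone and heat shock genes were taken as the protein-coding genes whose symbols start with HSPA, HSPB, HSPD, HSPE, HSPH, HSP90, DNAJA, DNAJB, DNAJC or CCT followed by a number, with TCP1 added. The rule found 83 genes among 20050 protein-coding genes of the RefSeq table. Of these, 70 had a window on their own strand centred on a transcription start site (TSS) within 1000 bp of the RefSeq 5′ end, and the same rule gave a window to 17050 protein-coding genes in all. The 70 genes used 68 distinct windows, because HSPE1 shares its window with the readthrough gene HSPE1-MOB4, and DNAJC25 with DNAJC25-GNG10. At the edge of the distance limit, CCT7 was inside with a window at 888 bp and HSPB6 outside with its nearest at 1050 bp. By role, 6 of 7 heat-inducible genes had a window, as did 13 of 13 constitutive HSP70, HSP110 and HSP90 genes, 10 of 13 chaperonin genes, 5 of 7 small heat shock genes and 36 of 43 other J-domain genes.

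The values come from HEK293 cells, a long-established line from human embryonic kidney. The cells were fixed with formaldehyde, and chromatin was immunoprecipitated with the antibody fragment BG4, which recognises G-quadruplex DNA. G-quadruplexes are folds of several strands that guanine-rich DNA can form. All libraries share this line and 1 condition, and no heat shock is named in the labels. Each of 3 biological replicates, labelled BioRep1, BioRep2 and BioRep3, was read as 3 technical ChIP libraries. The labels do not say whether the biological replicates are separate cultures, so spreads between them may be technical. Each also had 1 input library, which was not used here, so no level was corrected for input or for DNA copy number.

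Chaperones bind unfolded proteins and help them reach or keep their native form. HSP70 proteins work with J-domain partners that stimulate their ATPase, HSP90 matures kinases and receptors, the CCT ring folds actin and tubulin, and small heat shock proteins hold unfolded clients without using ATP. On heat stress the transcription factor HSF1 binds heat shock elements, inverted repeats of the letters GAA, and induces a subset of these genes, while many others are transcribed at all times.

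Promoter sequences were taken from RefSeq (GRCh38.p14), which held promoters for 75 of the 83 genes, and 8 are printed here as the 250 bases before the start site, 5′ to 3′ on the strand of the gene. The first pair is shown because these near-identical copies differed in signal, with capitals marking bases that differ from the other copy. HSPA1A lies at chr6:31815293-31815542 and HSPA1B at chr6:31827488-31827737, both on the plus strand.
HSPA1A: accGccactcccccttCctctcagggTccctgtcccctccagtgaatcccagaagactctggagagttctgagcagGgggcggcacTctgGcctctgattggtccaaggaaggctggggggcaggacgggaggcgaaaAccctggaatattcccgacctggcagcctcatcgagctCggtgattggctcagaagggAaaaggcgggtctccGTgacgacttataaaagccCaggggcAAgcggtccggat
HSPA1B: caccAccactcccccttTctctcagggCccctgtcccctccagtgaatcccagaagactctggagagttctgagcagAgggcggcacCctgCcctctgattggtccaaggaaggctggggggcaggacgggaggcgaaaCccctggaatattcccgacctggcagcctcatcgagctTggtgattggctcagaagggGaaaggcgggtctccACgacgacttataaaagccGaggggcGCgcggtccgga
The annotated start sites are offset by 1 base, so 249 bases could be aligned. Over these the copies were 94.4% identical, with 14 substitutions and no gap. The next 3 promoters are shown because they hold a heat shock element, in capitals, and differ in signal. The sequences come from the inner start of HSP90AA1 at chr14:102087045-102087294 on the minus strand, HSPA8 at chr11:123062137-123062386 on the minus strand, and HSPA6 at chr1:161524290-161524539 on the plus strand.
HSP90AA1: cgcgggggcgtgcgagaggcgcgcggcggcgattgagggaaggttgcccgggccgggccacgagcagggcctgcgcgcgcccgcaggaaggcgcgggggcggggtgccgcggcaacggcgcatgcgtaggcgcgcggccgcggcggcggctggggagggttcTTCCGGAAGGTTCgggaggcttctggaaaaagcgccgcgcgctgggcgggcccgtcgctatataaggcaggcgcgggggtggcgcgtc
HSPA8: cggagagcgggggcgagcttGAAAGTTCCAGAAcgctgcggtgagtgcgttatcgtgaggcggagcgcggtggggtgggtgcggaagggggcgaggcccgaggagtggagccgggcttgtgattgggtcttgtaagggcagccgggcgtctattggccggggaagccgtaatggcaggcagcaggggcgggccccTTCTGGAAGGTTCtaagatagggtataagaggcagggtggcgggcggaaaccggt
HSPA6: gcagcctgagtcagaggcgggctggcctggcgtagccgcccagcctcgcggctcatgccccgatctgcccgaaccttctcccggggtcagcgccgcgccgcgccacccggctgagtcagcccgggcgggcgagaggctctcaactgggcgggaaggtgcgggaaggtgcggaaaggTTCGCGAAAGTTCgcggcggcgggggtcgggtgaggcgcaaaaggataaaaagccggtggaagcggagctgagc
The last 3 are shown because they hold a G-quadruplex motif, in capitals, and a peak in all 3 lists. They are the inner start of HSPD1 at chr2:197499841-197500090 on the minus strand, TCP1 at chr6:159789603-159789852 on the minus strand, and DNAJC21 at chr5:34929309-34929558 on the plus strand, where the motif reads as runs of C because the guanines lie on the opposite strand.
HSPD1: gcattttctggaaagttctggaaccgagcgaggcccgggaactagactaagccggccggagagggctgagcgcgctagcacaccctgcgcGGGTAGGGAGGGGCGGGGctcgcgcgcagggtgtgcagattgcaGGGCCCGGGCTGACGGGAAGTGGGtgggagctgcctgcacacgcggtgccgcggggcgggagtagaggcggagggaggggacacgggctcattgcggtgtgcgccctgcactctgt
TCP1: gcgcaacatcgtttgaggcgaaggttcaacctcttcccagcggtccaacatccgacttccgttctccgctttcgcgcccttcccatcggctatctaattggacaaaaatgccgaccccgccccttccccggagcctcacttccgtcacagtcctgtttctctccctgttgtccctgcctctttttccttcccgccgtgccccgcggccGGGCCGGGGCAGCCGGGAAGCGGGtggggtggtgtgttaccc
DNAJC21: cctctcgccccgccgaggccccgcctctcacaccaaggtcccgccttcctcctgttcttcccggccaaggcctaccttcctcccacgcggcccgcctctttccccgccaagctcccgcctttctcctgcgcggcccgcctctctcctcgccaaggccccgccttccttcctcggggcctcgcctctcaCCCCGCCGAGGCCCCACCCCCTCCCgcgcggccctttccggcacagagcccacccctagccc

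Chaperone gene windows carried a BG4 peak more often than protein-coding windows as a whole. A window had a consensus peak when the peak lists of all 3 biological replicates had a peak overlapping it by 1 bp or more. Of the 70 genes, 29 had a consensus peak, which is 41.4% (95% Wilson interval 30.6 to 53.1%), against 4075 of 17050 protein-coding genes, or 23.9%. A further 10 genes had a peak in 2 lists, 4 in 1 list and 27 in none. At least 2 lists had a peak at 55.7% of the chaperone genes and 34.2% of the protein-coding genes, and any list at 61.4% and 41.3%. Intervals cover counting error only, and the genes were not drawn at random, so no test was made of this difference.

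Read density was higher at these windows too. It is given as CPM, the reads in a 400 bp window per 1000000 reads in all windows of that library, so levels of different genes refer to the same length. The windows held 372030 to 846114 reads per library. The median over the 70 genes was 40.3 CPM in BioRep1, 45.1 CPM in BioRep2 and 42.9 CPM in BioRep3 (mean 42.8 ± 2.41, SD, n = 3), against 23.4 ± 0.669 CPM for all protein-coding genes. The median of the chaperone genes was higher in each of the 3 biological replicates. By mean level, 47 of the 70 genes were above the protein-coding median and 11 were in the top 10%. The genes with a peak in all 3 lists had means of 41.1 to 115 CPM, and those with a peak in none had means of 4.51 to 45.1 CPM, so the levels overlapped only at the upper end of the second group, where DNAJC8, a spliceosome-associated J-domain protein, had 45.1 ± 5.36 CPM and no peak.

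**Figure D1:**
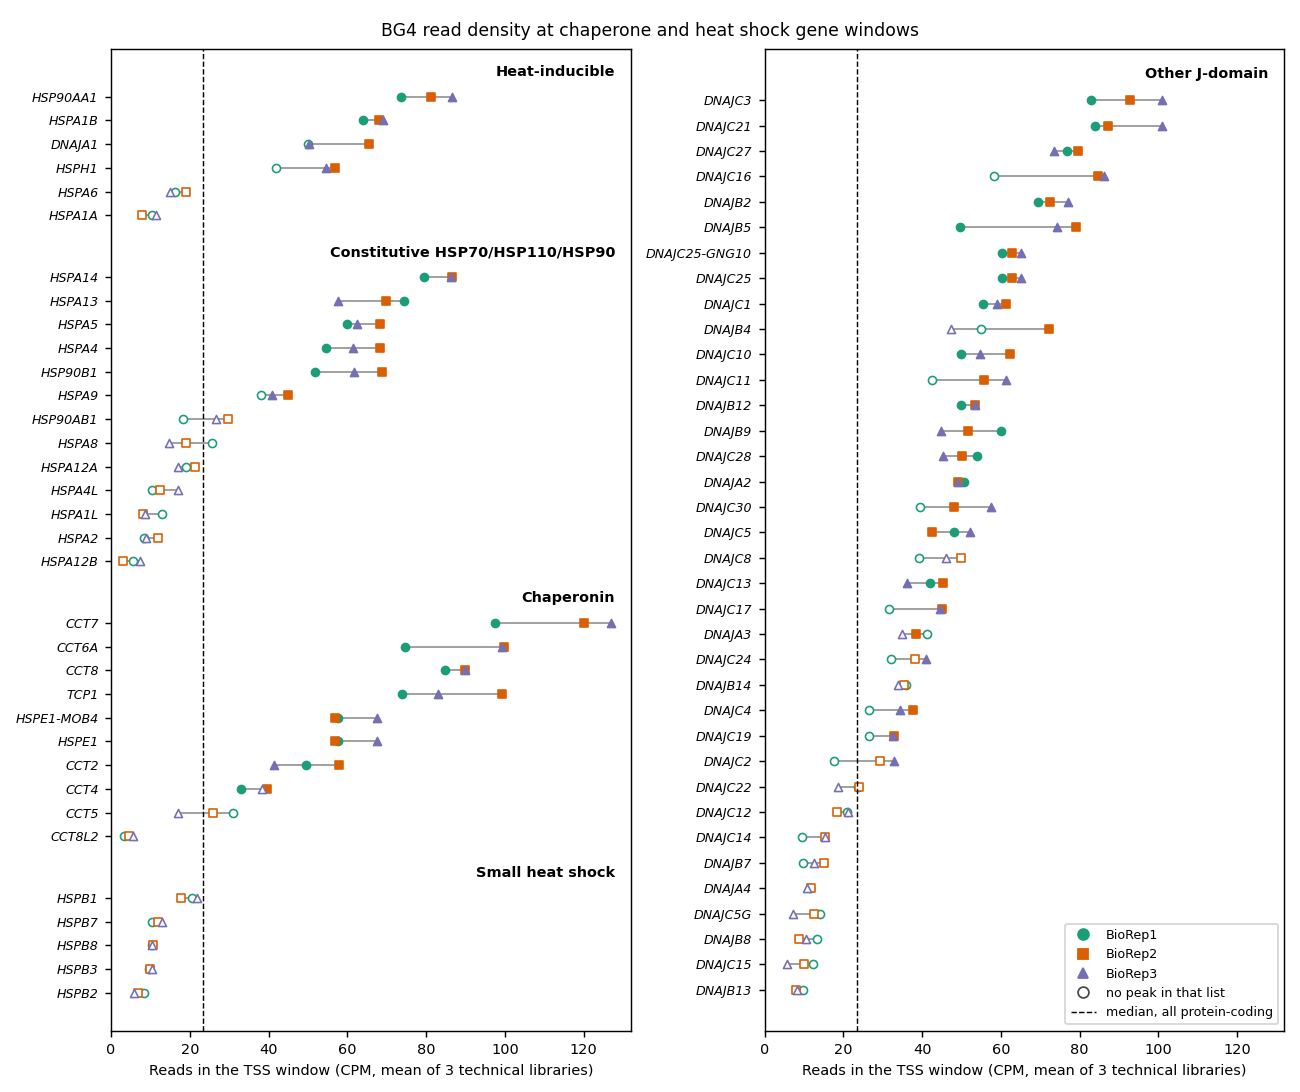
Each symbol is the BG4 read density (CPM, mean of 3 technical libraries) of a chaperone or heat shock gene window in BioRep1, BioRep2 or BioRep3, filled where that replicate's list has a peak in the window, and the dashed line is the median of all protein-coding genes. The 5 small heat shock genes lie at 7.02 to 20.0 CPM with no filled symbol, while 7 of 10 chaperonin genes are filled in all 3 replicates.

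Mean levels of the heat-inducible genes ran from 9.90 to 80.5 CPM, and the list held both peak-bearing and peak-free genes. HSP90AA1, the stress-induced cytosolic HSP90, had 73.7, 81.2 and 86.5 CPM in BioRep1, BioRep2 and BioRep3 at its window (chr14:102139500-102139899), which lies at its outermost start, and a peak in all 3 lists. HSPA1B, encoding the main inducible HSP70, had 63.9, 68.1 and 69.1 CPM (chr6:31827536-31827935) and also a peak in all 3. These were the 2 of 6 heat-inducible genes with a consensus peak (33.3%, 9.68 to 70%).

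HSPA1A, which encodes the same HSP70 protein, had 10.3, 7.92 and 11.5 CPM (chr6:31815265-31815664), in a window shared with HSPA1L, and no peak in any list. Across the 9 libraries its counts ran from 4 to 8 reads with a median of 6, and those of HSPA1B from 18 to 64 reads with a median of 42, so the copies did not overlap. How reads that match both copies were assigned is not given in the sources used here, and its part in the difference was not tested. The 14 substitutions in the printed promoters are where reads of this stretch differ between the copies.

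DNAJA1, a J-domain partner of HSP70, had 50.0, 65.4 and 50.3 CPM in a window shared with the 5′ end of APTX. HSPH1, the HSP110 exchange factor, had 42.0, 56.8 and 54.7 CPM. Each had a peak in the lists of BioRep2 and BioRep3 and none in that of BioRep1. HSPA6, an HSP70 that is nearly silent without stress, had 16.2, 19.1 and 15.0 CPM (chr1:161524341-161524740) and no peak, and none of its 9 libraries passed 20.8 CPM. The median of the 6 genes was 53.2 ± 7.57 CPM. The choice of genes set this value: a broader list of 14 genes that adds HSPA8, HSPB1, HSPE1 and others said to respond to heat had a median of 23.9 ± 0.724 CPM and a consensus peak in 3 of 14. DNAJB1, the remaining gene of the class and the J-domain partner most often paired with inducible HSP70, had no window, but a peak in all 3 lists at 2 of its 3 RefSeq promoters.

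Mean levels of the constitutive genes ran from 5.27 to 84.1 CPM. HSPA14, a ribosome-associated HSP70, had the highest level at 79.4, 86.5 and 86.4 CPM, in a window shared with the 5′ end of CDNF. HSPA13, a microsomal HSP70, followed with 74.3, 69.7 and 57.7 CPM. HSPA5, the endoplasmic reticulum HSP70 also called BiP, had 59.8, 68.4 and 62.5 CPM (chr9:125241131-125241530). HSPA4, a cytosolic HSP110, had 61.5 ± 6.77 CPM and HSP90B1, the endoplasmic reticulum HSP90, 60.8 ± 8.53 CPM. These 5 had a peak in all 3 lists, and the last 4 of them did not differ beyond their spread.

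HSPA9, the mitochondrial HSP70, had 41.3 ± 3.45 CPM and a peak in BioRep2 and BioRep3 in its window. Outside the window, BioRep1 had a peak at -464 to -296 bp from the RefSeq start of HSPA9. Peaks of BioRep2 and BioRep3 also covered that stretch. HSP90AB1, the constitutive cytosolic HSP90, had 18.3, 29.6 and 26.6 CPM and no peak, and only the BioRep2 list touched any of its 3 RefSeq promoters. HSPA8, the abundant constitutive HSP70, had 19.7 ± 5.47 CPM and no peak, but its window lies 768 bp from the RefSeq 5′ end. At the HSPA8 promoter printed above the peaks covered 206, 297 and 230 of 300 bases in BioRep1, BioRep2 and BioRep3.

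The remaining constitutive genes were low. HSPA12A had 19.1 ± 2.20 CPM, HSPA4L 13.2 ± 3.32 CPM, HSPA1L 9.82 ± 2.65 CPM, HSPA2 9.63 ± 1.91 CPM and HSPA12B 5.27 ± 2.11 CPM, with no peak in their windows. HSPA1L and HSPA2 are testis-enriched members of the HSP70 family. HSPA12A had a peak in all 3 lists at another RefSeq start, where 9 bases were common to the 3 lists. In this class 5 of 13 windows held a consensus peak (38.5%, 17.7 to 64.5%), and the median was 27.3 ± 2.12 CPM. The median was 41.3 CPM over the 9 genes whose window TSS lies within 200 bp of the RefSeq 5′ end, a choice that leaves out HSPA13, HSPA8, HSPA12A and HSPA1L.

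Chaperonin genes had the highest share of consensus peaks among the 5 classes by role, 7 of 10 genes (70%, 39.7 to 89.2%), and a median of 60.8 ± 5.76 CPM. With the window that HSPE1 and HSPE1-MOB4 share counted once, the share was 6 of 9 windows. The lead was small at RefSeq promoters, with 7 of 12 chaperonin genes (58.3%) against 6 of 11 constitutive genes (54.5%). The CCT ring has 8 kinds of subunit, and 7 of their genes had a window. CCT7 was the highest of all 70 genes, with 97.5, 120 and 127 CPM (chr2:73233221-73233620). This window lies 888 bp from the RefSeq 5′ end of CCT7 and within 200 bp of that of PRADC1, and the CCT7 promoter of RefSeq had no peak in any list. CCT6A had 74.7, 99.9 and 99.3 CPM in a window shared with PSPH, and TCP1, the CCT1 subunit, had 73.8, 99.3 and 82.9 CPM in a window shared with MRPL18. CCT8, with no other gene within 200 bp, had 84.9, 89.8 and 89.9 CPM (chr21:29073598-29073997), and its lowest library was at 74.3 CPM. CCT6A, CCT8 and TCP1 overlapped in level.

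HSPE1, the mitochondrial co-chaperonin, had 57.7, 56.8 and 67.5 CPM in a window that also holds the 5′ end of HSPD1, its chaperonin partner, which is transcribed the other way. CCT2 had 49.6 ± 8.33 CPM. These had a peak in all 3 lists. CCT4 had 37.0 ± 3.43 CPM with peaks in BioRep1 and BioRep2 that covered 7 and 45 bp of its window. CCT5 had 30.9, 26.0 and 17.1 CPM with no peak, in a window shared with ATPSCKMT. CCT8L2, a testis-enriched relative, had 3.38, 4.56 and 5.59 CPM. Of the genes without a window, HSPD1 and CCT3 had a peak in all 3 lists at a RefSeq promoter, and CCT6B, a testis-enriched subunit, had none.

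None of the small heat shock genes had a peak in any list, 0 of 5 windows, which allows a share of up to 43.4% by the Wilson interval. HSPB1, the widely expressed HSP27, had 20.6, 17.7 and 21.8 CPM (chr7:76302345-76302744). The other 4 were lower: HSPB7 had 11.7 ± 1.27 CPM, HSPB8 10.4 ± 0.176 CPM, HSPB3 9.99 ± 0.407 CPM and HSPB2 7.02 ± 1.25 CPM. All 5 lay below the protein-coding median. At RefSeq promoters none of 6 small heat shock genes had a peak in all 3 lists, among them HSPB6 and HSPB9, which had no window.

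The medians of the classes kept a similar order in each replicate. Chaperonins were at 57.7, 57.3 and 67.5 CPM, heat-inducible genes at 46.0, 61.1 and 52.5 CPM, and other J-domain genes at 41.5, 46.6 and 45.0 CPM. Constitutive genes were at 25.6, 29.6 and 26.6 CPM and small heat shock genes at 10.3, 10.6 and 10.4 CPM. The chaperonin and heat-inducible medians overlapped, since the latter was higher in BioRep2, and the ranges of the heat-inducible and other J-domain medians overlapped as well, although the former was higher in each replicate. The constitutive and small heat shock medians lay below those 3 classes in all 3 replicates, and small heat shock genes were lowest in all 3. The place of the constitutive class depends on the gene lists and windows used. Its median was 27.3 CPM, against 23.9 CPM for the broad heat-inducible list. With TSSs within 200 bp it was 41.3 CPM, still below other J-domain genes at 44.6 CPM. By consensus peaks the constitutive share was 38.5% and the heat-inducible share 33.3%.

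**Figure D2:**
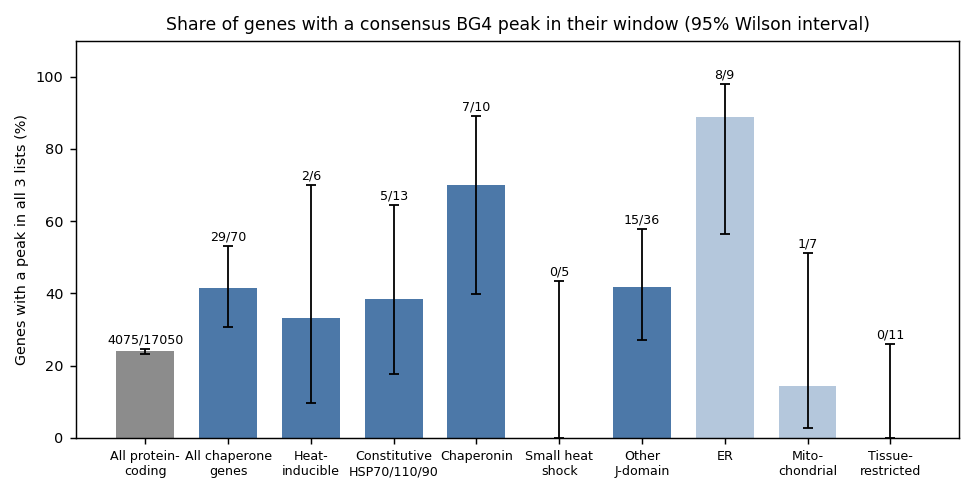
Bars give the percentage of genes with a BG4 peak in all 3 lists in their window, for all protein-coding genes (grey), for the chaperone genes and their classes by role (dark) and for 3 overlapping groups by location or tissue (light), with 95% Wilson intervals and the counts above. The shorter list of endoplasmic reticulum members reaches 8 of 9, small heat shock genes 0 of 5 and tissue-restricted members 0 of 11.

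The other J-domain genes ranged widely: 15 of 36 genes had a consensus peak (41.7%, 27.1 to 57.8%), or 14 of 35 distinct windows, and the median was 44.4 ± 2.61 CPM. DNAJC3, an endoplasmic reticulum protein that also inhibits the kinase PERK, was highest at 82.8, 92.7 and 101 CPM. DNAJC21, a ribosome biogenesis factor, had 83.9, 87.3 and 101 CPM, and peaks covered all 300 bases of its printed promoter region in each list. DNAJC27, a small GTPase with a J domain, had 76.6 ± 2.95 CPM and DNAJC16 76.3 ± 15.7 CPM. DNAJC16 had 58.2 CPM and no peak in BioRep1, against 84.6 and 86.2 CPM with peaks in BioRep2 and BioRep3.

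Next came DNAJB2, which binds ubiquitinated clients, with 73.0 ± 3.82 CPM, DNAJB5 with 67.7 ± 15.8 CPM, DNAJC25 with its readthrough gene at 62.7 ± 2.43 CPM, and DNAJC1, a ribosome-associated protein of the endoplasmic reticulum membrane, with 58.6 ± 2.90 CPM. All had a peak in all 3 lists. DNAJB4 had 54.9, 72.1 and 47.4 CPM and a peak in BioRep2 alone. The lowest 5 were DNAJB13, an axonemal protein, at 8.67 ± 0.957 CPM, DNAJC15, a mitochondrial inner membrane protein, at 9.30 ± 3.32 CPM, the testis-enriched DNAJB8 at 10.8 ± 2.32 CPM and DNAJC5G at 11.2 ± 3.59 CPM, and DNAJA4 at 11.3 ± 0.501 CPM. None of these 5 had a peak in any list. The other 21 J-domain genes lay between 12.4 and 55.7 CPM.

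By location, a list of endoplasmic reticulum members (HSPA5, HSPA13, HSP90B1, DNAJB9, DNAJC1, DNAJC3, DNAJC10, DNAJC16 and DNAJC25) held a consensus peak in 8 of 9 windows (88.9%, 56.5 to 98.0%), with a median of 63.3 ± 4.49 CPM. DNAJC16 had peaks in 2 lists. The list leaves out other membrane J-domain proteins of this compartment. With DNAJB12, DNAJB14 and DNAJC14 added, a choice made after seeing the data, the share was 9 of 12 (75.0%, 46.8 to 91.1%), as DNAJB14 at 35.1 ± 1.09 CPM and DNAJC14 at 13.4 ± 3.45 CPM had no peak in their windows. DNAJB11, a cofactor of HSPA5 without a window, had a peak in all 3 lists at its RefSeq promoter. Of 7 mitochondrial members 1, HSPE1, had a consensus peak (14.3%, 2.57 to 51.3%), and 4 had peaks in 2 lists. Their median was 41.8 ± 2.83 CPM. This list also leaves out J-domain genes that could be placed there, so its share depends on the choice. DNAJC28, which is not in it, had a consensus peak and 49.8 ± 4.42 CPM. HSPD1, a mitochondrial member without a window, had a peak in all 3 lists at both of its RefSeq promoters, of which the outer faces HSPE1. Members with expression restricted to testis, muscle or another tissue had no peak in any list in 11 windows, which allows up to 25.9% by the Wilson interval, and a median of 8.98 ± 0.669 CPM. None of the 11 reached the protein-coding median. This list too depends on the choice of genes, and it overlaps the small heat shock class. Without these 11 genes, 29 of 59 genes had a consensus peak (49.2%). Leaving out genes without a peak can only raise the share. Tissue-restricted genes were not removed from the protein-coding genes, so their 23.9% is not a matched background for it. The absence of peaks holds for the windows: HSPA2, a tissue-restricted member, had peaks in BioRep2 and BioRep3 at its RefSeq promoter. That promoter starts 4836 bp from its window TSS.

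Part of the peaks lay in windows that another protein-coding gene shares. Of 14 chaperone genes whose window holds the 5′ end of another protein-coding gene within 200 bp, 9 had a consensus peak (64.3%, 38.8 to 83.7%), against 731 of 1508 such protein-coding genes (48.5%). Of the 56 others, 20 had a peak (35.7%, 24.5 to 48.8%), against 21.5% of such protein-coding genes. The 14 include HSPE1 and DNAJC25 with their readthrough genes, which use the same window. By distinct window the shared ones had a consensus peak in 7 of 12, against 686 of 1373 for protein-coding genes. For other genes without a RefSeq promoter entry, either end was counted as a 5′ end. Reads at a shared promoter cannot be told apart by gene.

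The RefSeq promoters, 250 bases before to 50 after a start, gave a count that does not rest on the outermost TSS. Of 75 chaperone genes, 31 had a peak in all 3 lists at any of their promoters (41.3%, 30.9 to 52.6%), against 4492 of 15843 protein-coding genes (28.4%). By this count 3 of 7 heat-inducible genes had a peak, as did 6 of 11 constitutive genes, 7 of 12 chaperonins, 0 of 6 small heat shock genes and 15 of 39 other J-domain genes. CCT3, DNAJB1, DNAJB11, DNAJC9 and HSPD1 had a peak here and no window, and HSPA8, HSPA12A and DNAJC14 had a peak here and none in their window. Of the other genes without a window, DNAJC7 had peaks in 2 lists at its promoters, DNAJC18 in 1 list and DNAJB6 and DNAJC6 in none, while DNAJC5B was not analysed here. CCT7, DNAJB5 and DNAJC28 had a consensus peak in the window and not at the promoter.

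Counting 1 promoter a gene, 29 of 75 chaperone genes had a peak in all 3 lists there, against 25.7% of protein-coding genes. At HSPA1B the peaks ran from -438 to -42 bp in 2 pieces in BioRep1, from -437 to 37 bp in BioRep2 and from -462 to -18 bp in BioRep3, so they covered most of the printed sequence. At the inner start of HSP90AA1 they ran from -255 to 38 bp, -291 to 21 bp and -400 to 43 bp. These spans hold the heat shock element, at -88 to -76 bp.

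**Figure D3:**
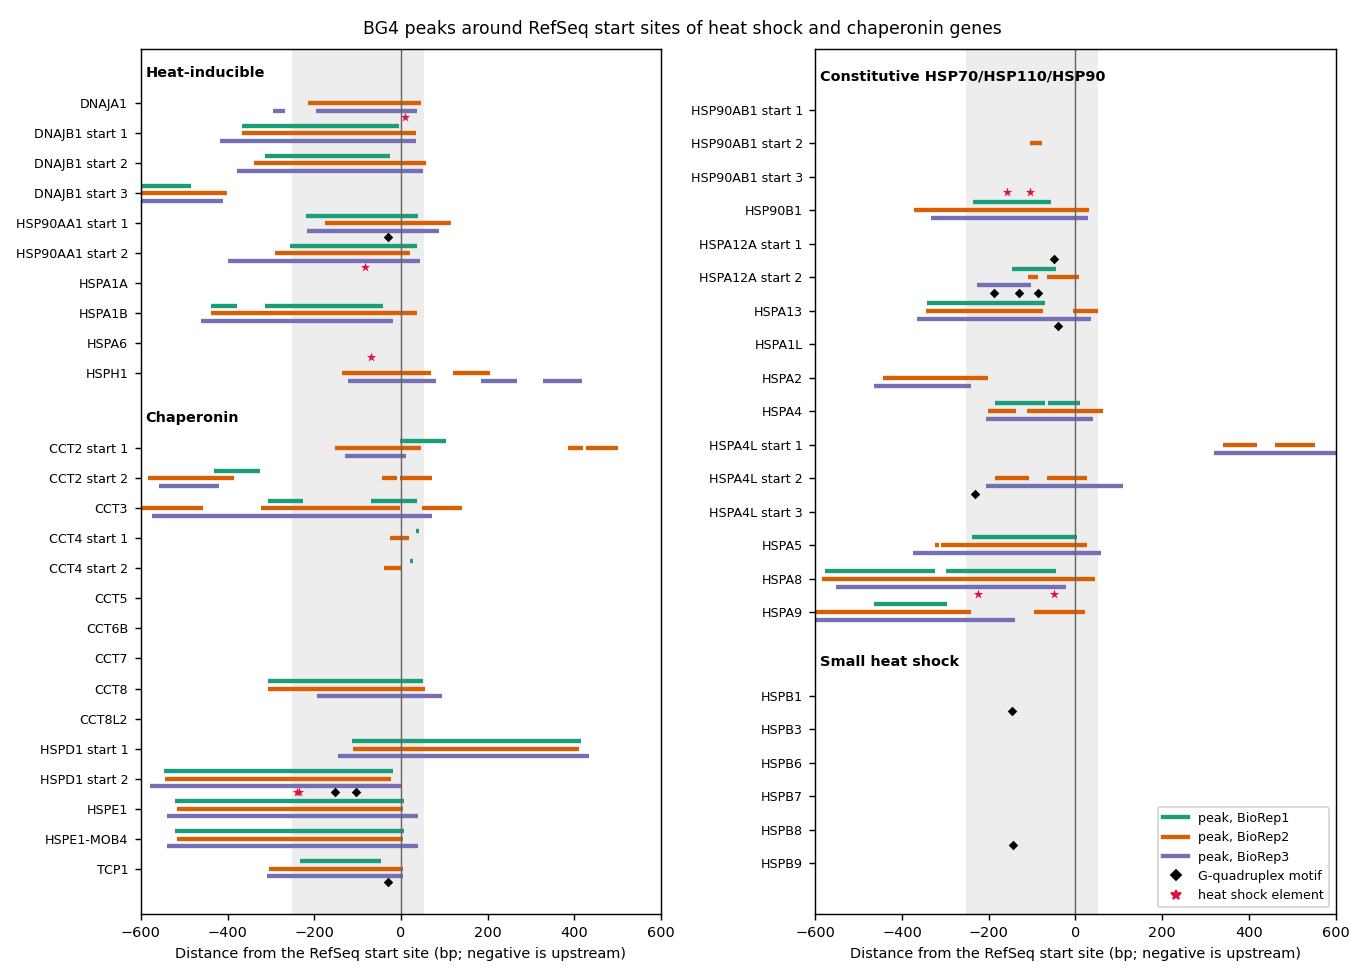
Coloured lines are the BG4 peaks of BioRep1, BioRep2 and BioRep3 by distance from each RefSeq start site (bp, negative is upstream), the grey band is the 300-base promoter, diamonds mark G-quadruplex motifs and stars heat shock elements. HSPA1B has peaks in all 3 lists and HSPA1A none, and no small heat shock gene has a peak in the range drawn.

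The motifs were searched on both strands of the 300 bases, at 1 promoter a gene, and a match describes letters only. A G-quadruplex motif, 4 runs of GGG separated by 1 to 7 bases, was present at 15 of 75 chaperone promoters (20.0%), against 30.1% of 15843 protein-coding promoters. Among promoters with a peak in all 3 lists it was present at 7 of 29 chaperone genes (24.1%) and at 38.7% of protein-coding genes. Thus 22 of the 29 chaperone promoters with a peak did not hold this motif. HSPA1B and HSPA5 are among them. At TCP1 the motif lies from -42 to -19 bp, inside the peaks of BioRep2 and BioRep3. The BioRep1 peak ends just before it, at -45 bp.

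Letting the loops reach 12 bases raised the counts to 31 of 75 (41.3%) and 45.1%. Of the 29 chaperone promoters with a peak in all 3 lists, 14 then held the motif (48.3%), against 58% of such protein-coding promoters. HSPA1B is among the 14 and HSPA5 is not. A peak in all 3 lists was present at 7 of 15 chaperone promoters with the shorter-loop motif (46.7%, 24.8 to 69.9%) and at 22 of 60 without it (36.7%, 25.6 to 49.3%). The intervals overlapped. Over protein-coding promoters the shares were 33.1% with the motif and 22.6% without.

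Heat shock elements, searched as GAA, TTC and GAA or as TTC, GAA and TTC with 2 free bases between neighbours, were present at 4 of 75 chaperone promoters (5.33%) and at 59 of 15843 protein-coding promoters (0.372%). The 4 genes were DNAJA1, DNAJB6, HSPA6 and HSPA8, of which HSPA8 alone had a peak in all 3 lists there. Only exact matches were counted, so elements with a changed letter were missed. HSPA1A, HSPA1B, DNAJB1 and HSPH1 had no exact match, which does not show that they lack an element. At HSPA8 the element at -230 to -218 bp lay inside the peaks of all 3 lists and that at -55 to -43 bp in part, since the BioRep1 peak ends at -45 bp. Other starts of HSP90AA1, HSP90AB1 and HSPD1 also held elements, and the HSPD1 pair overlaps within the printed sequence at -245 to -228 bp. CCAAT was present at 41.3% of chaperone and 36.4% of protein-coding promoters, TATAAA at 13.3% and 9.75%, and GGGCGG at 66.7% and 58.3%. HSPA1A and HSPA1B both hold TATAAA.

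The G and C content of the promoters moved with the peaks. Its median was 63.3% in chaperone genes and 62.7% in protein-coding genes. Chaperone promoters with a peak in all 3 lists had a median of 65.0% and those with no peak 60.3%, against 68.3% and 57.3% over protein-coding genes. Under 60% G and C, 1 of 19 chaperone promoters had a peak (5.26%, 0.935 to 24.6%), against 7.20% of protein-coding promoters. From 60 to under 70% it was 23 of 46 (50.0%, 36.1 to 63.9%) against 35.3%, and at 70% or more 5 of 10 (50.0%, 23.7 to 76.3%) against 42.3%. The part of base composition in the class differences was not tested.

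**Figure D4:**
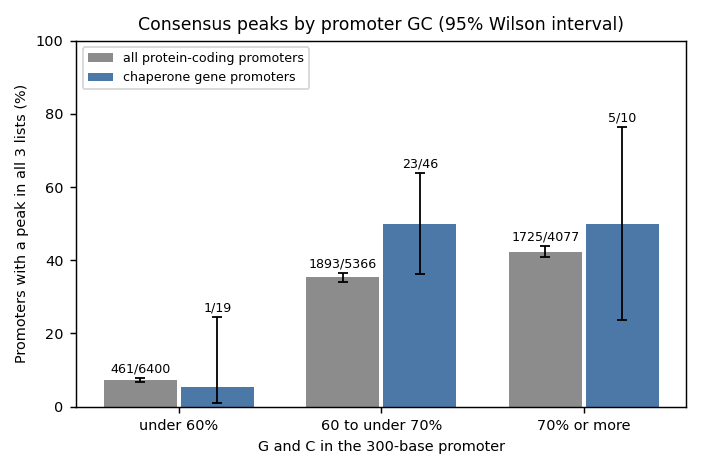
Bars give the percentage of promoters with a BG4 peak in all 3 lists by the share of G and C in the 300 bases, for all protein-coding genes (grey) and chaperone genes (blue), with 95% Wilson intervals and counts above. Chaperone promoters of 60 to under 70% G and C reach 23 of 46, and those under 60% have 1 of 19.

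The replicates were compared over all windows with edgeR's quasi-likelihood test with Benjamini-Hochberg adjustment, which takes technical libraries as replicates. Of 17499 windows tested 0 were called at an adjusted p under 0.05 (0%), and of the 54 chaperone genes among them 0 were called. The other 16, all of low level, did not pass the filter on low counts. At an unadjusted p under 0.05 there were 9 of 54 chaperone genes (16.7%) and 7.88% of all windows. The lowest adjusted p was 0.397, at DNAJB5, with 49.7, 79.0 and 74.3 CPM. DESeq2 also called 0 windows, with 3 chaperone genes at an unadjusted p under 0.05.

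BioRep1 had the shortest peak list, with 7931 peaks against 11665 and 13049. Peaks in BioRep2 and BioRep3 alone were found at 9 of 70 chaperone genes and at 1562 of 17050 protein-coding genes (9.16%). Among genes with peaks in exactly 2 lists this was 9 of 10 chaperone genes, the exception being CCT4, and 1562 of 1753 protein-coding genes, so the chaperone genes were near the background. The part of list length in this pattern was not tested.

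Genes that regulate or assist these chaperones were measured the same way. Of 43 such genes with a window 20 had a consensus peak (46.5%, 32.5 to 61.1%), and their median was 43.9 ± 3.94 CPM. The 43 genes also hold chaperones outside the symbol rule, among them HYOU1, TRAP1, CRYAA and CRYAB. By group, 3 of 7 regulators, 15 of 29 co-chaperones and further chaperones, and 2 of 7 prefoldin and related genes had a consensus peak. The highest were PTGES3, the HSP90 co-chaperone p23, at 97.4 ± 8.82 CPM, HSCB, a mitochondrial iron-sulfur cluster co-chaperone whose window holds the 5′ end of another gene, at 90.8 ± 3.67 CPM, and HSPBP1, an HSP70 exchange factor, at 89.8 ± 10.5 CPM. HYOU1, an endoplasmic reticulum HSP110, had 86.9 ± 6.0 CPM and GRPEL1, the mitochondrial HSP70 exchange factor, 80.0 ± 9.80 CPM. HSF2, a relative of HSF1, had 66.2, 85.5 and 93.1 CPM, and HSF1 had 59.3, 65.3 and 71.6 CPM in a window shared with the 5′ end of BOP1. All 7 had a peak in all 3 lists.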

How the data were processed

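Per the deposited files, each 400 bp window around a GENCODE release 28 start site has a whole-number read count, unscaled for depth or input. The authors deposited 1 peak list per biological replicate, with chromosome, start and end and no score. The build was hg38 and the tools were bedtools, BWA, cutadapt, MACS2 and Picard, per the submitters' processing notes. No version, threshold, rule for joining technical libraries or duplicate handling is given in the sources used here. Removing duplicates would cap dense windows.

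Windows were named by position: each gene took the same-strand TSS nearest its RefSeq 5′ end within 1000 bp. For 7 members without a RefSeq promoter entry either end was allowed. CPM was averaged over technical libraries and is given as mean ± SD over 3 biological replicates. A count of 3 reads corresponds to 3.55 to 8.06 CPM, which limits low windows. The members and lists were chosen with earlier results of these data known. Genes named were all members of the heat-inducible, constitutive, chaperonin and small classes, the 10 highest and 5 lowest other J-domain genes, and, of the pathway genes, the 6 highest, HSF1 and HSF2. Any other name was picked with its value in view.

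Python 3.11.15 and R 4.3.3 with edgeR 4.0.16 (TMM, filterByExpr, robust fit, 2 degrees of freedom) and DESeq2 1.42.0 were used. The common dispersion was 0.0011. On simulated data with 17899 windows, edgeR between the 3 biological replicates recovered 1.5-fold changes in 34.0% of cases and 2-fold changes in 67.3%. It recovered every change of 3-fold or 4-fold (100%), with 5 false calls. The changes were placed in BioRep2, and all counts were drawn at the common dispersion. No further spread between biological replicates or between windows was simulated, so recovery in the real data may be lower. Alternatives were other size factors, no filter, DESeq2, a replicate block, other peak, overlap and naming rules, and leaving out each library. The count at any RefSeq promoter and the longer endoplasmic reticulum list were chosen after seeing the data.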

Additional observations from a re-analysis of the deposited data

How the results depend on the processing

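The share of chaperone genes with a consensus peak ran from 31.4% (only peaks above their list's median width) to 61.4% (a peak in any list) over 12 alternatives, at 1.46 to 2.32 times the share of protein-coding genes under the same rule. Their median density stayed above that of protein-coding genes in 13 alternatives, at 41.9 to 43.7 CPM without single libraries. The heat-inducible median was 23.9 CPM with the broad list. The constitutive median was 41.3 CPM with TSSs within 200 bp and 25.1 to 28.8 CPM without single libraries, the lowest without BioRep2 replicate 2. The small heat shock median was 10.8 CPM with mitochondrial windows left out of the totals, 10.9 CPM with TSSs within 200 bp and 10.1 to 10.9 CPM without single libraries. Loops of up to 12 bases moved the share of promoters with the G-quadruplex motif to 41.3%. The cause of these moves was not tested.

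Between replicates, edgeR called 25 of 56196 windows with no filter on low counts, none of them a chaperone gene. Without single libraries it called 0 to 1 windows, 1 without BioRep1 replicate 1 and 1 without BioRep3 replicate 2, and 0 chaperone genes. With the technical number as a replicate block it called 0 windows, and the lowest adjusted p of a chaperone gene in edgeR was 0.440. Libraries with the same number deviated together no more than others, with correlations of -0.015 to 0.026 against -0.021 to 0.023. No pairing by number was seen, but low counts per window could hide a weak one. Depth limits the lowest windows, where 0 to 8 reads per library were counted at HSPB2.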
